A study of Arabidopsis thaliana with 33 samples.

Results

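The midday genes described here are probe sets whose leaf signal was far higher at midday than at midnight under every growth condition tested. They were chosen from their own time difference: the midday group mean minus the midnight group mean had to be at least 1 on the log2 scale in each of the 4 CO2 by nitrogen conditions, and the mean of the 4 differences at least 1.75. Of 12772 probe sets that are no array control, 234 met these thresholds. LHCB4.2 and BCAT4 were set aside by name, which left 232 members. PSBY, ALDH11A3 and plastid-encoded genes were to be left out too, but no probe set that the annotation names as one of them met the thresholds. A single gene is named for 91 members and more than one for 4, while 137 are absent from the annotation used here and stay unnamed, so a gene meant to be left out could be among them. Because the time difference chose the members, it is given as a description, and the tests below concern CO2 and nitrogen.

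Total RNA came from the youngest fully expanded leaves of Arabidopsis thaliana ecotype Col-0 on day 35 and was measured on 33 Affymetrix arrays. Plants grew in chambers at 370 ppm (ambient) or 750 ppm (elevated) CO2, and their nutrient solution held 6 mM NH4NO3 (ample nitrogen) or 0.25 mM NH4NO3 (limiting nitrogen). Leaves were cut at midday or midnight, which makes 8 groups of 3 to 5 arrays, 15 midday and 18 midnight arrays in all. All groups shared the ecotype, leaf position, age and a light and dark cycle with warmer days than nights, so midday and midnight differ in light, temperature and clock time together. Nothing in the labels tells if replicates came from different plants or chambers or from pools. The p-values therefore reflect only the spread between these samples, which may be technical.

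In plants, the level of many transcripts follows the day and night cycle. An internal circadian clock, light perceived by photoreceptors and photosynthesis, and the sugar made by photosynthesis all act on transcription, and each can place a transcript's peak in the light period. With 2 sampled times the hour of a peak cannot be read. Elevated CO2 raises carbon fixation in leaves of plants such as Arabidopsis, while nitrogen supply limits how much protein they can build.

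Each value is a log2 level, and every array has its median at 0, so a value of 2 lies 4-fold above that array's median probe set. As a check of the tissue label, RCA (Rubisco activase) and PRK (phosphoribulokinase), both abundant in green leaf cells, had mean levels of 6.11 and 5.54 over all arrays, with mean CO2 effects of -0.19 and -0.36 (limma adjusted p = 0.0749 and 0.00263). FAMA, a transcription factor of guard cells, was at -1.91, and the chosen markers of trichomes, phloem, xylem and flowers were not among the named probe sets. Of the arrays, 2 stood apart. The ambient ample midnight replicate 4 had a log2 difference between 3' and 5' control probes, a sign of RNA quality, of 4.41 against 1.46 to 2.35 in the other 32 arrays, and a median correlation of 0.894 with its group. The elevated limiting midnight replicate 1 correlated with its group at 0.941 against 0.969 to 0.977 for its group mates. The group mean of this 3' to 5' difference was 2.54 in ambient and 2.13 in elevated leaves at ample nitrogen and midnight, 2.11 and 1.92 at limiting nitrogen and midnight, and 1.73 to 1.85 in the 4 midday groups. The part of these differences in the results below was not tested beyond leaving the 2 arrays out. In whole leaves, fewer cells of a type and less RNA per cell cannot be told apart.

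The 232 members formed a group of genes that sat well above the array median by day and mostly below it at night. The median over members was between 1.65 and 2.18 in each of the 15 midday arrays and between -0.89 and -0.42 in each of the 18 midnight arrays. No midday array came near a midnight array in this summary. By group means, 92 members lay below the array median in all 4 midnight groups and above it in all 4 midday groups, 66 stayed above it throughout, and 16 stayed below it throughout. For 198 members each of the 15 midday values was above each of the 18 midnight values, as for 4.58% of all probe sets. Within conditions this separation held for 227 members in ambient leaves at ample nitrogen (14.1% of all probe sets), 228 in elevated leaves at ample nitrogen (18.4% of all), 229 in ambient leaves at limiting nitrogen (21.1% of all) and 223 in elevated leaves at limiting nitrogen (16.4% of all). The rule fixes most of this separation, and nothing is read from it.

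**Figure D1:**
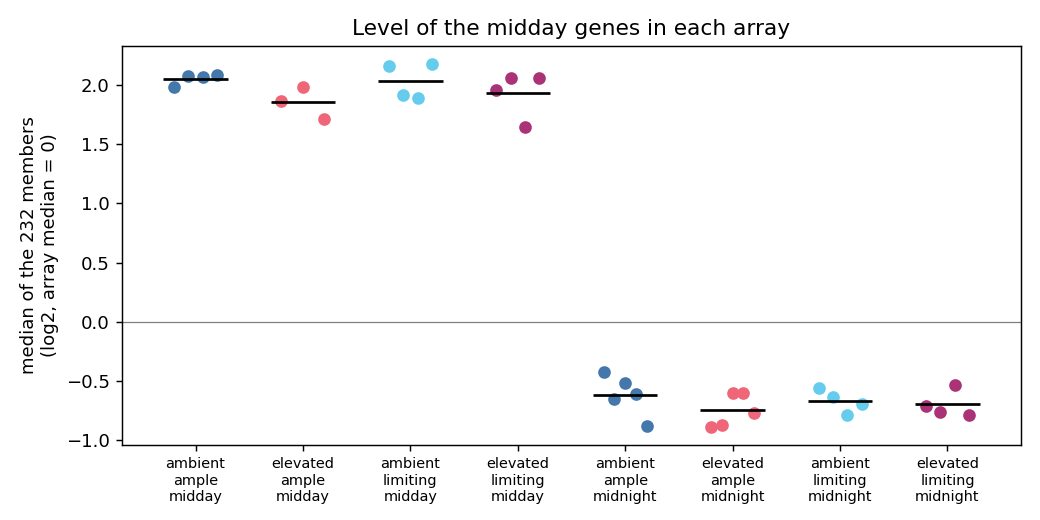
Median log2 value of the 232 members in each of the 33 arrays, by group, with the array median at 0; points are arrays and lines are group means. All 15 midday arrays lie between 1.65 and 2.18 and all 18 midnight arrays between -0.89 and -0.42.

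The mean time difference ran from 1.75 to 5.92 on the log2 scale with a median of 2.19, a median fold of 4.57. It was at least 3 for 44 members, at least 4 for 16 and at least 5 for 5. The 5 largest belong to unnamed probe sets. The first of them had a mean difference of 5.92, or 60.5-fold, with 5.64 to 6.25 in the 4 conditions. The size was alike in the 4 conditions, with medians over members of 2.28 at ambient CO2 and ample nitrogen, 2.20 at elevated CO2 and ample nitrogen, 2.20 at ambient CO2 and limiting nitrogen, and 2.16 at elevated CO2 and limiting nitrogen. Values just inside the threshold were AT5G63700 with a mean of 1.75354 and 2 unnamed probe sets with 1.75409 and 1.75666. Just outside were AT4G29750 with 1.74803, an unnamed probe set with 1.73976, and AT3G26450 with 1.73911. A further 4 probe sets reached the mean but fell short of 1 in a condition, the nearest being AT3G07090 with 0.974 in its lowest.

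Among the named members the largest time difference was that of AT5G35970. Its 15 midday arrays ran from 3.62 to 4.56 (median 4.00) and its 18 midnight arrays from -1.30 to -0.07 (median -0.51). AT2G23840, an HNH endonuclease family gene, ran from 0.94 to 1.61 at midday (median 1.43) and from -4.42 to -1.83 at midnight (median -2.56). CYP71B26 encodes a cytochrome P450, one of a large family of oxygenases. It ran from 2.13 to 2.57 at midday (median 2.40) and from -2.46 to -0.62 at midnight (median -1.64). In all 3 genes the midnight arrays spread over a wider range than the midday arrays, only somewhat wider in AT5G35970, with no overlap. The lowest midnight value of AT2G23840 and the highest of CYP71B26 came from ambient ample midnight replicate 4, which stood apart.

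IAGLU, which attaches glucose to the auxin indole-3-acetic acid, ran from 0.33 to 1.37 at midday (median 1.03) and from -3.34 to -1.71 at midnight (median -2.33). AT5G15950 is a gene for S-adenosylmethionine decarboxylase, an enzyme of polyamine synthesis. Its arrays ran from 2.67 to 3.25 at midday (median 2.88) and from -1.37 to 0.05 at midnight (median -0.69). AT4G12980, an auxin-responsive family gene, AT3G57020, of the strictosidine synthase-like family, and AT1G55960, which has a START lipid-binding domain, had mean differences of 3.55, 3.46 and 3.41. AT5G59130, a subtilisin-like protease gene, had one of 3.27. AT5G57345 (3.68), AT3G01060 (3.61) and AT3G15310 (3.49) complete the 12 named members with the largest differences.

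**Figure D2:**
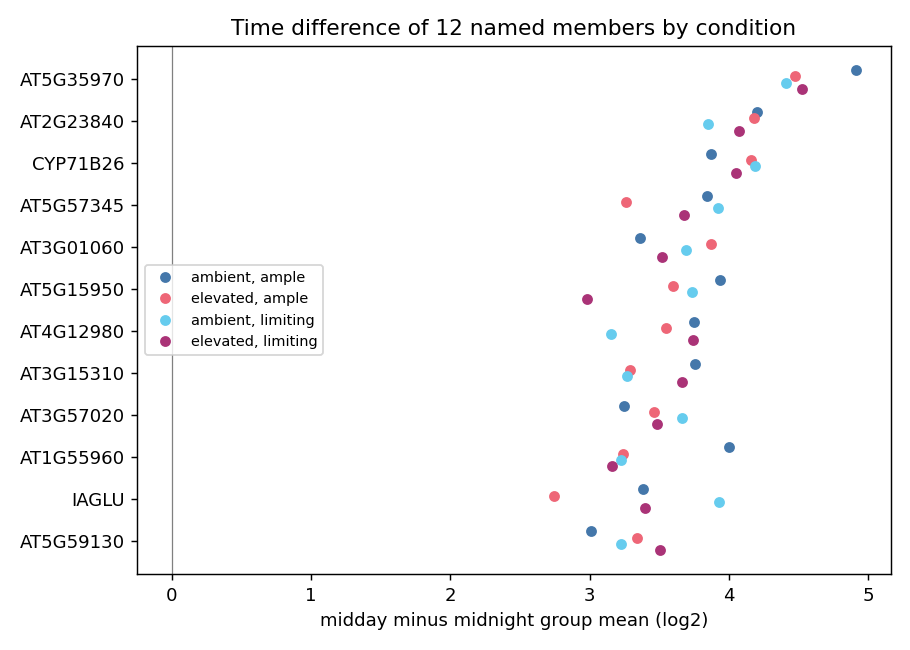
Midday minus midnight group mean on the log2 scale for the 12 named members with the largest mean difference, in the 4 CO2 by nitrogen conditions; each point is the difference of 2 group means. AT5G35970 lies between 4.41 and 4.91, while IAGLU ranges from 2.74 to 3.93.

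Most members kept a similar time difference in the 4 conditions, and a few did not. The range over conditions had a median of 0.50, and it was above 1 for 30 members. Among the named members the widest was that of AT3G09440, a cytosolic HSP70 chaperone gene, whose difference was 2.90 and 3.14 at ambient CO2 (ample and limiting nitrogen) and 1.46 and 1.21 at elevated CO2. Cpn60beta2, a subunit of the chloroplast chaperonin that folds proteins such as Rubisco, had differences of 1.77 at elevated CO2 and limiting nitrogen and 2.60 to 3.41 in the others. AT1G20070 had differences of 2.63 and 2.37 at ambient CO2 and 1.54 and 1.07 at elevated CO2 (ample and limiting nitrogen). EXPB3, a beta-expansin that loosens cell walls, had 2.80 at ambient CO2 and ample nitrogen and 1.59 to 1.86 elsewhere. TRY, a small MYB protein that represses trichome formation, had its largest difference, 2.89, at elevated CO2 and ample nitrogen and its smallest, 1.80, at ambient CO2 and limiting nitrogen. These ranges use the values that chose the members and were not tested.

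Spike-in controls, which are added in the laboratory, also differed somewhat between midday and midnight arrays. Over 37 such probe sets the mean midday minus midnight difference ran from -0.74 to 0.93 with a median of 0.17, and 0 reached 1 in size. The part of such differences in the members' values was not tested.

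Elevated CO2 went with lower levels of many midday genes. For the mean CO2 effect, elevated minus ambient averaged over nitrogen supply and time, limma with Benjamini-Hochberg adjustment over all 12772 probe sets called 82 of the 232 members (35.3%), against 21.3% of all probe sets. Of these, 67 members (28.9%) were lower at elevated CO2, against 12.9% of all probe sets, and 15 (6.47%) were higher, against 8.46%. The median effect over members was -0.15, beside -0.03 over all probe sets, and 162 of 232 members (69.8%) lay below 0, beside 56.9% of all. No test was made of the difference between members and other genes. The average compares arrays within each time of day, so the midday minus midnight difference that chose the members largely drops out of it. Some dependence can remain, because group sizes were unequal and the rule also set a threshold in each condition. The changes were small: the lower members had a median log2 effect of -0.42, with 11 past 1.5-fold and the largest at 1.88-fold. Leaving out both arrays that stood apart gave 70 members, 60 of them lower, with 18.4% of all probe sets called. Leaving out 1 array at a time gave 57 members (without elevated ample midday replicate 3) to 91. Shares over all probe sets in those fits are not reported here.

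AT4G12980 was a clear case among the named members. At midday its 8 ambient arrays ran from 2.56 to 2.89 (median 2.66) and its 7 elevated arrays from 1.60 to 2.33 (median 2.098), so that the groups did not overlap. At midnight the 9 ambient arrays ran from -1.68 to -0.25 (median -0.75) and the 9 elevated arrays from -2.75 to -1.02 (median -1.44). There the groups overlapped at ample but not at limiting nitrogen. The mean CO2 effect was -0.72 (SE 0.13, limma adjusted p = 0.000886), 1.65-fold lower. Over all 232 members the smallest limma adjusted p was 0.000787 and the lowest effect -0.91, and neither belonged to AT4G12980.

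Of 5 members that are GDSL esterases, a family of lipid- and ester-cleaving enzymes, 3 fell, and all 5 effects were below 0 with a median of -0.50. The roles here and below were assigned with results of these data known, and for genes without a symbol from general knowledge rather than the annotation table, so their counts are no independent evidence of a direction. AT4G18970 had 8 ambient midday arrays from 0.08 to 1.78 (median 0.81) and 7 elevated ones from -0.79 to 0.91 (median 0.19). At midnight its ambient arrays ran from -2.58 to -1.53 (median -1.96) and its elevated arrays from -4.01 to -2.00 (median -2.76), with 5 of the 9 elevated arrays below every ambient one. The mean effect was -0.74 (SE 0.18, limma adjusted p = 0.00463), 1.67-fold lower. AT5G45950 ran from -0.51 to 1.27 (median -0.14) in ambient and from -1.38 to -0.42 (median -0.92) in elevated leaves at midnight, and its mean effect was -0.63 (SE 0.13, limma adjusted p = 0.00179). AT3G48460 also fell (-0.50, limma adjusted p = 0.0415), while AT1G28610 (-0.29, limma adjusted p = 0.0563) and AT1G56670 (-0.33, limma adjusted p = 0.429) did not pass.

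The 3 members placed as transporters of sugars or amino acids all fell: AT1G19450 and SFP2, both of the ERD6-like family of sugar transporters, with effects of -0.36 and -0.43 (limma adjusted p = 0.0146 and 0.0198), and AT5G02180, of an amino acid transporter family, with -0.42 (limma adjusted p = 0.0043). SFP2 ran from -0.41 to 0.02 at midday in ambient leaves (median -0.24) and from -1.06 to -0.20 in elevated leaves (median -0.52). At midnight it ran from -2.55 to -1.26 (median -2.03) and from -3.36 to -1.92 (median -2.39). The groups overlapped at both times.

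Of 5 protease genes 4 lay below 0 and 3 fell, all of them subtilisin-like proteases. AT5G59130 fell by 0.55 on the log2 scale (SE 0.16, limma adjusted p = 0.0131), AT5G44530 by 0.43 (limma adjusted p = 0.00185) and ATSBT5.2 by 0.47 (limma adjusted p = 0.0112). At midnight AT5G44530 ran from -1.03 to -0.42 in ambient leaves and from -1.58 to -0.63 in elevated leaves, with 6 of 9 elevated arrays below every ambient one. BETA-VPE, a vacuolar processing enzyme, had an effect of 0.17 (limma adjusted p = 0.514), and AT3G61820, an aspartyl protease family gene, one of -0.05 (limma adjusted p = 0.771).

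The 6 cell wall genes all lay below 0 with a median of -0.34, and 2 fell. These were AT1G67750, a pectate lyase gene (-0.58, limma adjusted p = 0.0318), and AT1G27120, a galactosyltransferase gene (-0.56, limma adjusted p = 0.00643). The call for AT1G67750 was lost in 8 of 39 alternative fits, including array weights, with adjusted p up to 0.083. EXPB3 (-0.14), XTH32, which cuts and rejoins xyloglucan (-0.29), GH9C2, an endoglucanase-type enzyme (-0.37), and TBL26 (-0.32) did not pass, with limma adjusted p from 0.179 to 0.494.

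Among the redox and detoxification genes the members did not move one way. Of 8, 5 lay below 0 and 2 fell, and the median was -0.08. AOR, which reduces reactive carbonyls, had ambient midday arrays from 4.46 to 4.84 (median 4.63) and elevated ones from 4.00 to 4.51 (median 4.37). Its mean effect was -0.50 (SE 0.12, limma adjusted p = 0.0046). VTC4, an enzyme of ascorbate synthesis, had an effect of -0.32 (limma adjusted p = 0.0279). MSRB5 and MSRB6, methionine sulfoxide reductases that repair oxidised proteins, had 0.05 and -0.12, and GSTU20, a glutathione transferase, had 0.30 (limma adjusted p = 0.846, 0.648 and 0.058). The thioredoxin-like genes AT2G37240 and AT5G65840 and the quinone reductase family gene AT4G13010 had effects of 0.02, -0.06 and -0.09, none of which passed.

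Smaller groups showed the following. The 3 alpha/beta hydrolase genes AT1G18360, AT1G73750 and AT1G18460 fell by 0.42, 0.26 and 0.29 on the log2 scale (limma adjusted p = 0.00325, 0.0221 and 0.00663). Of the 3 regulators, TRY (-0.54, limma adjusted p = 0.0043) and AT2G34620, of the family of organellar transcription terminators (-0.61, limma adjusted p = 0.00736), fell, and AT2G44940, an AP2/ERF transcription factor gene, had 0.04 (limma adjusted p = 0.722). Of the 3 reductase genes AT2G29300, of the tropinone reductase-like family, fell (-0.60, limma adjusted p = 0.016), while AT2G29360 of that family and AT1G75280, of the isoflavone reductase-like family, had -0.21 and -0.16 and did not pass. No member passed in the next group: IAGLU (-0.16), AT5G15950 (0.07), ARD4 of methionine salvage (-0.07) and the phosphoethanolamine methyltransferase gene AT1G73600 (-0.08). The first 3 are of hormone, polyamine and methionine metabolism. The limma adjusted p of the group ran from 0.415 to 0.683. In all, 45 members were placed in 11 such roles, of which 19 fell and 1 rose. Among all members 28.9% were lower and 6.47% higher, and among all probe sets 12.9% and 8.46%. The roles were assigned with results known, so nothing is read from this share.

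**Figure D3:**
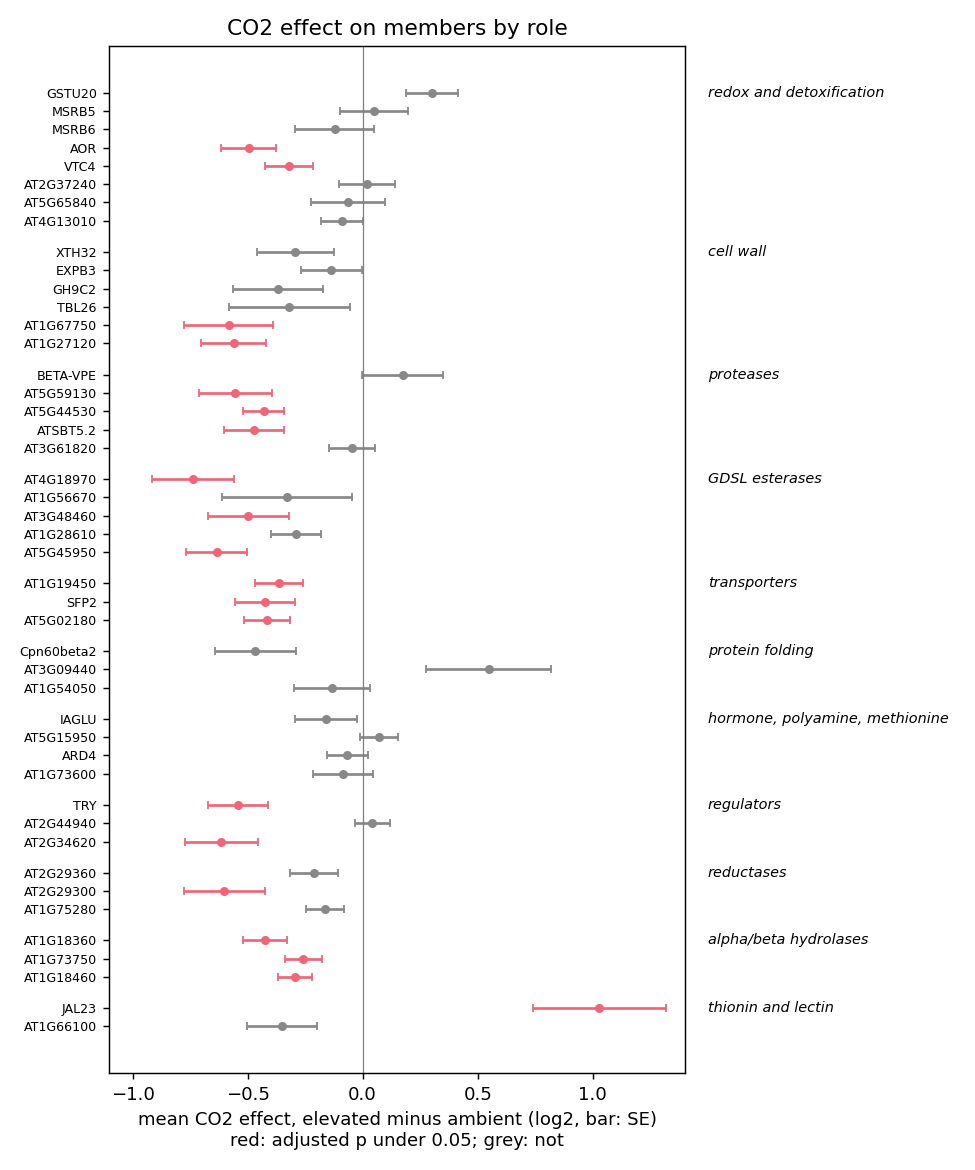
Mean CO2 effect (elevated minus ambient, log2, bars are standard errors from limma over 33 arrays) for the 45 members placed in a role; red marks an adjusted p under 0.05. Of these 19 fell and JAL23 alone rose, with all 3 transporters and all 3 alpha/beta hydrolases among those that fell. Of all probe sets 12.9% were lower and 8.46% higher. Roles were assigned with results of these data known.

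The named members that rose were JAL23, AT1G80130 and AT1G19960. JAL23 is a jacalin-type lectin gene of a family linked to defence. It was at -0.50, -0.42, -0.75 and -0.13 in the ambient ample midday arrays and at -0.13, 1.16 and 1.63 in the elevated ones. At limiting nitrogen and midday it was at -0.74, -0.39, -2.11 and -0.15 in ambient and at -0.34, 0.23, -0.67 and -0.02 in elevated leaves. At midnight its ambient arrays ran from -5.49 to -1.33 (median -2.76) and its elevated arrays from -2.67 to -1.19 (median -2.07). Elevated leaves were the higher on average in every condition. The groups met at 1 equal value at ample nitrogen and midday and overlapped in the other conditions. The mean effect was 1.03 (SE 0.29, limma adjusted p = 0.012), 2.04-fold. The other member with a defence role, the thionin gene AT1G66100, had -0.35 (limma adjusted p = 0.097). AT1G80130, a tetratricopeptide-repeat family gene, rose by 0.72 (SE 0.18, limma adjusted p = 0.0061). AT1G19960 rose by 0.48 (limma adjusted p = 0.045), and its call was lost in 21 of 39 alternative fits. A probe set shared by AT3G44870 and FAMT, which methylates farnesoic acid, had the largest rise of any member, 1.24 (limma adjusted p = 0.047); it cannot assign its signal to either gene.

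The median CO2 difference was below 0 in each condition, for the members and for all probe sets. At midday 169 members were below 0 at ample nitrogen (median -0.23) and 159 at limiting nitrogen (median -0.14), or 72.8% and 68.5% of members beside 53.3% and 54.4% of all probe sets. At midnight 142 were below 0 at ample nitrogen (median -0.13) and 134 at limiting nitrogen (median -0.10), or 61.2% and 57.8% beside 56.6% and 56.2% of all. The midnight shares were near those of all probe sets. These are descriptions of group means.

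Tests at 1 time of day, here and below, use the same group means as the rule. More than for the average over time, their counts could depend on how members were chosen. Tested at midday alone, over both nitrogen supplies, limma called 3 members (1.29%), beside 1.34% of all probe sets, and 56 of 232 members had an unadjusted p under 0.05, beside 2130 of 12772 probe sets. Of the 3, 2 were lower, beside 0.274% of all, and 1 was higher, beside 1.06%. The named one was AT1G55960. Its ambient ample midday arrays were at 2.98, 3.17, 2.89 and 3.16 and the elevated ones at 2.36, 2.31 and 2.25, with no overlap. At limiting nitrogen the ambient arrays were at 2.52, 2.75, 2.27 and 2.22 and the elevated ones at 2.17, 2.33, 1.82 and 2.21, with overlap. The effect was -0.52 (SE 0.12, limma adjusted p = 0.0252), 1.44-fold lower, and the call was lost in 5 of 39 alternative fits, with adjusted p up to 0.12. At midnight the effect was -0.11 (limma adjusted p = 0.504). The other 2 are unnamed, 1 lower by a log2 effect of -0.99 and 1 higher by 0.68. The count was 10 with the midday arrays alone, beside 2.59% of all probe sets, and 20 with array weights, beside 6.21%.

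**Figure D4:**
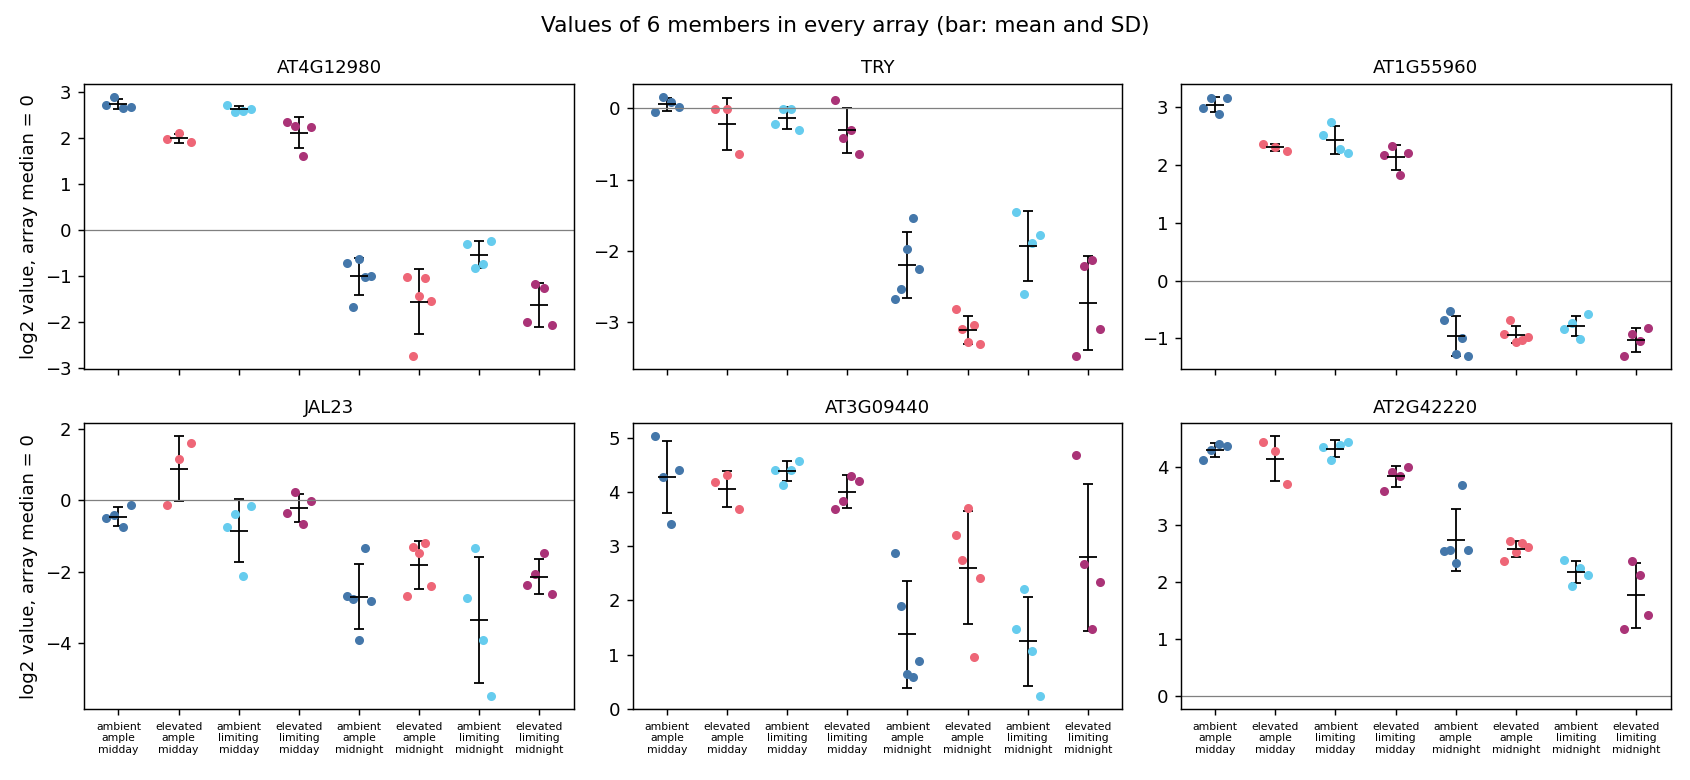
Log2 values of 6 members in every array, with the array median at 0; points are arrays, bars are the group mean and SD of 3 to 5 arrays. AT4G12980 is lower in elevated leaves at midday, and lower on average at midnight. AT1G55960 is lower on average in elevated leaves at midday and TRY at midnight, each with overlap at limiting nitrogen. JAL23 is higher on average in elevated leaves, and AT3G09440 varies widely at midnight. AT2G42220 is lower on average under limiting nitrogen at midnight.

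At midnight limma called 46 members (19.8%), beside 13.4% of all probe sets. Of these 30 were lower (12.9%, beside 8.24%) and 16 higher (6.90%, beside 5.14%). The count depended on few arrays. Without elevated limiting midnight replicate 1 the count was 10. Leaving out ambient limiting midnight replicate 1 or 4 gave 29, and leaving out elevated ample midnight replicate 3 gave 30. Without both arrays that stood apart it was 8, beside 1.71% of all probe sets, so the share over all probe sets fell too. With the midnight arrays alone it was 11, all of them among the 46. Shares over all probe sets for this fit and for single arrays left out are not reported here. These counts therefore show nothing particular to the members.

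TRY stayed called in every alternative fit. In ample midnight leaves its values were -2.68, -2.54, -1.97, -1.53 and -2.25 in the ambient group and -2.82, -3.09, -3.28, -3.04 and -3.30 in the elevated group, without overlap. At limiting nitrogen it was at -1.45, -2.60, -1.89 and -1.77 in ambient and at -3.48, -2.21, -2.13 and -3.09 in elevated leaves, with overlap. The midnight effect was -0.86 (SE 0.17, limma adjusted p = 0.00624), 1.81-fold lower. At midday it was -0.23 (SE 0.19, limma adjusted p = 0.588). AT4G12980 (-0.82, limma adjusted p = 0.00826) and AT5G45950 (-0.80, limma adjusted p = 0.0087) likewise stayed called throughout. AT4G18970, AT1G27120, AT5G59130, AT2G34620 and AOR, with effects of -0.78 to -0.65, lost the call in 3 to 10 of their alternative fits.

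AT3G09440, the HSP70 gene, was higher at midnight in elevated leaves. At ample nitrogen its ambient arrays were at 2.87, 1.89, 0.64, 0.58 and 0.88 and its elevated arrays at 3.21, 2.75, 3.70, 0.96 and 2.41. At limiting nitrogen they were at 1.47, 2.21, 1.06 and 0.23, and at 4.68, 2.66, 1.48 and 2.34. The groups overlapped at both supplies, and the highest value came from an array that stood apart. The effect was 1.39 (SE 0.37, limma adjusted p = 0.0166), 2.62-fold, and without elevated limiting midnight replicate 1 it was 1.08 (adjusted p = 0.0669, range over 40 alternatives 0.00463 to 0.103). GSTU20 and AT5G15950 rose at midnight by 0.47 and 0.34 (limma adjusted p = 0.0418 and 0.043), calls lost in 15 and 13 of 40 alternative fits. The other protein folding members, Cpn60beta2 and the small heat shock family gene AT1G54050, had midnight effects of -0.13 and -0.15 (limma adjusted p = 0.741 and 0.689), and none of these 3 passed for the mean CO2 effect.

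Limiting nitrogen went with few changes among the midday genes, as over all probe sets. For the mean N effect, limiting minus ample averaged over CO2 and time, limma called 2 members (0.862%), both lower, beside 1.41% of all probe sets called and 0.83% called lower. The median over members was -0.03, beside -0.01 over all. Both are unnamed. The first had an effect of -0.94 (SE 0.23, limma adjusted p = 0.0276) and the second of -0.42 (SE 0.11, limma adjusted p = 0.0393), and the second was also the 1 member called for both nitrogen and CO2. The count ran from 0 to 6 when single arrays were left out (shares over all probe sets not reported here). Of the 33 such fits, 19 moved the count by over 1.5 times. It was 0 without both arrays that stood apart and 18 with array weights, 11 of these lower, beside 6.3% of all probe sets. Among named members the smallest p belonged to AT2G42220 (-0.41, limma adjusted p = 0.0637), AT4G17840 (0.25, limma adjusted p = 0.0846) and AT1G75280 (0.26, limma adjusted p = 0.133).

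**Figure D5:**
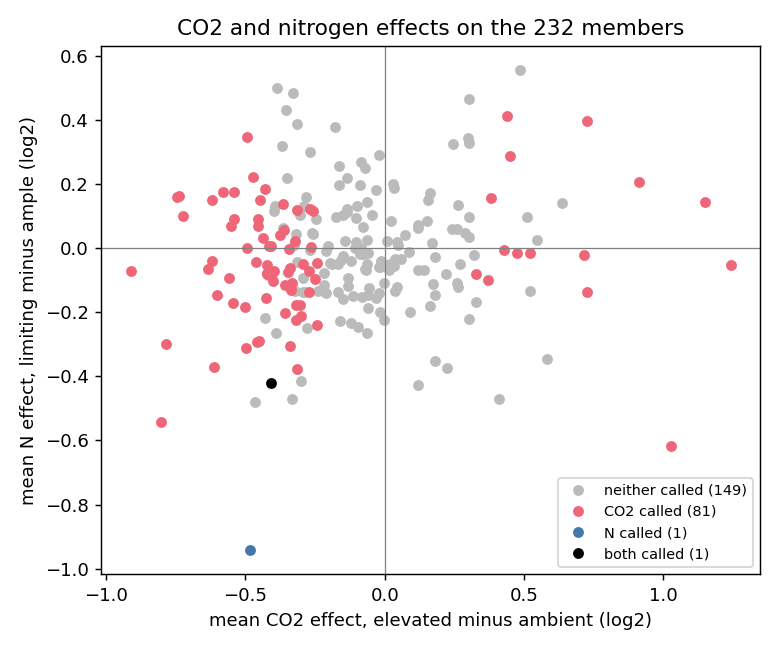
Mean CO2 effect (elevated minus ambient) against mean N effect (limiting minus ample), both log2, for the 232 members; each point is a member and colours mark adjusted p under 0.05. Of the members 81 were called for CO2 only, 1 for N only, 1 for both and 149 for neither.

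At midnight limma called 7 members (3.02%) for nitrogen, all lower at limiting supply, beside 1.38% of all probe sets called and 0.853% called lower. The count was 2 with the midnight arrays alone, beside 0.916% of all, and 12 with array weights, beside 2.41%. Of these 5 are unnamed, led by the first of the pair above. At ample nitrogen and midnight its mean was 0.53 ± 0.86 (SD, n = 5) under ambient CO2 and -0.55 ± 0.66 (SD, n = 5) under elevated CO2. At limiting nitrogen the means were -1.38 ± 0.45 (SD, n = 4) and -2.18 ± 0.66 (SD, n = 4), which gives a log2 effect of -1.76 (SE 0.31, limma adjusted p = 0.00118). At midday its 4 group means lay between 1.45 and 1.60, so its time difference was 1.07 in ambient leaves at ample nitrogen and 3.63 in elevated leaves at limiting nitrogen. The highest ambient ample value and the lowest elevated limiting value of this probe set at midnight came from the 2 arrays that stood apart. Both values enlarge the nitrogen effect and the contrast between these time differences. The effect of this probe set without those arrays is not reported here.

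The named members were AT2G42220 and AT1G21500. AT2G42220, a rhodanese-like gene, was at 2.53, 2.55, 2.33, 3.69 and 2.56 in ambient ample midnight leaves and at 2.37, 1.93, 2.24 and 2.12 in ambient limiting ones. In elevated leaves it was at 2.36, 2.71, 2.52, 2.68 and 2.61 at ample and at 1.17, 2.36, 2.13 and 1.41 at limiting nitrogen. The limiting arrays were the lower, with slight overlap at both CO2 levels. The effect was -0.69 (SE 0.15, limma adjusted p = 0.014). AT1G21500 had an effect of -0.62 (limma adjusted p = 0.0359), and its call was lost in 13 of 40 alternative fits. The call for AT2G42220 was lost in 1 of 40, the fit to midnight arrays alone (adjusted p = 0.0891). At midday limma called 0 members, beside 0.227% of all probe sets (0.0861% higher and 0.141% lower). Of the members 10 had an unadjusted p under 0.05, beside 870 of the 12772 probe sets, and array weights called 6, beside 3.78% of all. The smallest p among named ones was that of AT1G55960 (-0.39, limma adjusted p = 0.256).

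Whether the CO2 effect differed between nitrogen supplies was tested as a CO2 by N interaction averaged over time. limma called 0 members and 0% of all probe sets, and 0 members under array weights, while 13 of 232 members and 275 of 12772 probe sets had an unadjusted p under 0.05. AT5G12050 had the smallest p among named members, with an interaction of 0.79 (SE 0.31, limma adjusted p = 0.999). The median standard error of the interaction was 0.25 over members.

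Light, clock, chloroplast and metabolic genes were also looked up on 11 chosen pathway lists. No listed gene with a named probe set was a member, though some also differed by time. The lists are not complete, and members such as the chloroplast chaperonin gene Cpn60beta2 are not on them. Over these lists 19 genes had a named probe set, among them 1 of 23 clock genes and 1 of 17 light-signalling genes. Whether listed genes without one are among the 137 unnamed members cannot be told. UGT74C1 of glucosinolate synthesis came nearest with a mean time difference of 1.71, followed by HEME1 of chlorophyll synthesis with 1.31 and APS3, an ATP sulfurylase of sulfate assimilation, with 1.22. UGT78D1 and UGT78D2 of flavonoid synthesis had 1.12 and 0.60. RVE6, a clock-related MYB gene, and HYH, a light-signalling bZIP gene, had 0.59 and 0.55. In the chlorophyll list 5 of 7 genes were lower for the mean CO2 effect, among them CHLI2 (-0.40, limma adjusted p = 0.0054) and CHLM (-0.38, limma adjusted p = 0.00635), and 0 of 7 passed for nitrogen. LYCB of carotenoid synthesis (-0.37, limma adjusted p = 0.00441) was lower as well. So were NTRC, a plastid thioredoxin reductase (-0.40, limma adjusted p = 0.0123), and 2CPA, a plastid peroxiredoxin (-0.25, limma adjusted p = 0.0185). Z-ISO of carotenoid synthesis (-0.26, limma adjusted p = 0.0587) did not pass for CO2. Neither did any listed sulfate, flavonoid, glucosinolate, clock or light-signalling gene with a named probe set. Of all probe sets 12.9% were lower. For nitrogen 1 listed gene passed, APS4, which was higher by 0.38 (limma adjusted p = 0.0202). The lists for photoprotection, DNA photolyases and nitrate assimilation had no named probe set.

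In the genome, the 91 named members were found on all 5 nuclear chromosomes, with 33 (36.3%) on chromosome 1 beside 26.2% of all named probe sets, 15 (16.5%) on chromosome 2 beside 14.4%, 13 (14.3%) on chromosome 3 beside 20.6%, 9 (9.89%) on chromosome 4 beside 14.4%, and 21 (23.1%) on chromosome 5 beside 24.3%. Among those placed in the gene order of assembly TAIR10.1, 2 pairs were direct neighbours. MSRB5 and MSRB6 had mean time differences of 2.53 and 1.83, and AT5G57345 and AT5G57340 of 3.68 and 2.08.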

How the data were processed

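Per the labels, biotin-labelled targets were made with a 3' IVT kit. The values deposited by the authors are read as log2 because of their range (-8.13 to 7.44), and each array's median is 0. How probes were summarised, corrected and filtered is not given in the sources used here. Centring each array hides any change that most genes share. Probe sets were named from the platform annotation, updated by gene identifier with assembly TAIR10.1. Of 12772 tested probe sets 6898 name 1 gene, 272 several, and 5602 are not listed.

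Group means and differences were computed from the values as deposited. The model, run in limma 3.58.1 (R 4.3.3), used the 33 arrays together and estimated 8 group means. Contrasts were averaged over the other factors, 7 in all, and adjusted p-values (Benjamini-Hochberg, called under 0.05) cover all tested probe sets. The fit was tested on simulated data. Alternatives were quantile normalization, leaving out the 30% dimmest probe sets, array weights, eBayes with its trend and robust options, a block for replicate number, arrays of 1 time only, each array left out in turn and, added after seeing the data, leaving out both arrays that stood apart.

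Named genes were the 12 largest time differences, the 8 largest called changes each way per contrast (or the 3 smallest p), members at the threshold, and members of known role (for genes without a symbol, known in general and not from the annotation table). Members, lists and roles were chosen with earlier results of these data known. The number of arrays limits the precision.

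Arrays with the same replicate number in different groups deviated together little (median correlation 0.01 over 106 pairs, 28 over 0.1), so the numbers were not taken as pairs.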

Additional observations from a re-analysis of the deposited data

Results flagged for a closer look

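Over 24 members examined in detail, 168 groups of 4 or 5 arrays were searched for an array far from the rest, and 6 were found; the 95% limit of Dixon's test used here is set to flag about 1 group in 20 by chance. AT2G23840 was at -4.42 in ambient ample midnight replicate 4, with its group mates between -2.56 and -1.83, and AT2G42220 was at 3.69 in the same array, with the others between 2.33 and 2.56. That array also has the high ratio of 3' to 5' controls. AT4G12980 was at 1.60 in elevated limiting midday replicate 3, with the others between 2.24 and 2.33. In elevated ample midnight replicate 5, IAGLU was at -2.68, with the others between -1.98 and -1.71, and AT1G21500 was at 0.94, with the others between 0.48 and 0.61. SFP2 was at -2.37 in ambient limiting midnight replicate 4, with the others between -2.03 and -1.97.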

How the results depend on the processing

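The mean CO2 count of 82 members stayed within 1.5 times in every alternative, from 57 to 91 with single arrays left out. The CO2 count at midnight (46) was 27 with array weights, 11 with the midnight arrays alone, 8 without both arrays that stood apart, and 10 to 64 with single arrays left out. The CO2 count at midday (3) was 1 without the dimmest probe sets, 20 with array weights, 10 with the midday arrays alone, and 0 to 5 with single arrays left out; it was 0 without elevated ample midday replicate 3, ambient limiting midday replicate 1 or elevated limiting midday replicate 3. The mean N count (2) was 1 after quantile normalization, 18 with array weights, 0 without both arrays, and 0 to 6 with single arrays left out. The N counts at midday (0) and midnight (7) were 6 and 12 with array weights, the second was 2 with the midnight arrays alone, and single arrays left out gave 0 and 5 to 8. The interaction count was 0 throughout. Beyond smaller sets of arrays, the cause was not tested. Where the share over all probe sets is given above, it moved too, so these counts show nothing particular to the members. The replicate block gave 72 members for the mean CO2 effect, 1 for the mean N effect and 1 for CO2 at midday. Arrays of the same number deviated together little, and 0 arrays correlated best with their own number in every other group. After quantile normalization 214 of the 232 members met the rule, and with single arrays left out 224 to 232. Of 34 named gene results 16 kept their side of the threshold in every alternative and 13 lost a call in at least 1; 0 reversed. With 3 to 5 arrays a group, small changes, mostly at 1 time of day, could be missed.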
